A study of Mus musculus with 8 samples.

Results

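Undamaged mouse embryonic fibroblasts that carry a mutation at Dino were compared with WT fibroblasts. The comparison takes 4 of the 8 libraries of the series, those that received vehicle only, and reads the autosomal genes. Of 30419 gene rows, 22120 could be placed on an autosome, and 11414 of these were among the 12255 rows with enough counts to be tested. The 2 WT libraries (DINO+/+) and the 2 mutant libraries (DINO loxP/loxP) are lettered A and B and came from early-passage fibroblasts of E13.5 embryos that had vehicle for 8 h. The other 4 libraries are the same genotypes after 0.2 µg/mL doxorubicin, a drug that breaks DNA, for 8 h. All groups were cultured alike in serum-containing medium. The labels do not say how many embryos were used, or whether libraries of the same genotype came from separate cultures, so p-values measure the spread between these libraries, which may be technical. Nor do they say that WT and mutant cells came from littermates, so genotype and culture origin cannot be told apart.

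Dino is a long noncoding RNA made beside Cdkn1a, the gene for the cell cycle inhibitor p21. The transcription factor p53 switches on both after DNA damage, and the Dino RNA is known to bind p53 and stabilise it. In unstressed cells p53 is kept low by Mdm2, the ubiquitin ligase that marks it for destruction. The level of Dino itself was not analysed here, so the genotype labels were not checked on their target.

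Depth was 25482805 to 33285171 counts over the 8 libraries. Levels are given as CPM, counts scaled to a common library size and corrected for library composition. They are not corrected for gene length, so they compare libraries and not genes. Fibroblast markers were high in each vehicle library, with a summed level of 4914 to 5220 CPM for 12 genes. Col1a2, a collagen chain, lay between 1721 and 1953 CPM. Endothelial markers summed to 2.09 to 3.73 CPM, with Tie1 and Cldn5 at 0, and 8 of 10 listed red cell markers were at 0 in all 4 vehicle libraries. Macrophage and leukocyte markers summed to 28.1 and 30.0 CPM in WT and to 39.6 CPM in both mutant libraries. Xist, which silences an X chromosome in female cells, was at 0.260 and 0.293 CPM in WT A and B and at 254 and 212 CPM in mutant A and B. Y-linked genes summed to 795 and 699 CPM in WT and to 101 CPM in both mutant libraries. The cultures therefore differed in sex-linked RNA along with genotype, and the part of that difference in the autosomal results was not tested. Of 434 X-linked genes tested, 26 (5.99%) were called, a share close to the autosomal one.

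Between genotypes, 678 of 11414 autosomal genes (5.94%) differed at an adjusted p under 0.05 in edgeR's quasi-likelihood test. Such genes are referred to as called. In mutant cells 312 genes rose (2.73%) and 366 fell (3.21%). Changes of at least 2-fold were fewer, with 76 genes higher (0.666%) and 100 lower (0.876%). The median log2 fold change of mutant over WT was -0.003 over all autosomal genes, and the median size among called genes was 0.62. In none of the 678 did the WT and mutant libraries overlap. Over all autosomal genes, called or not, 21.4% were higher and 23.7% lower without overlap. Abundance set how small a change could be called. Of 2130 genes with at least 50 CPM 9.86% were called, with a median size of 0.36, and of 4961 genes under 4 CPM 3.27% were called, with a median size of 1.28. Leaving out WT B, the most deeply sequenced library, lowered the count to 361, and leaving out mutant A or mutant B lowered it to 371 or 370.

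Cdkn1b had the largest fall among genes with at least 4 CPM. It encodes p27, an inhibitor of cyclin-dependent kinases that holds cells before DNA replication. Its level was 71.6 and 64.4 CPM in WT A and B against 7.14 and 8.30 CPM in mutant A and B. The log2 fold change was -3.14 ± 0.13 (SE; adjusted p = 1.7e-13). Pdpn, the membrane glycoprotein podoplanin, was the most abundant gene of the leading falls, at 401 and 376 CPM in WT and 91.2 and 98.9 CPM in mutant cells (-2.03 ± 0.07). B3galt6, a galactosyltransferase that builds the linker of proteoglycan chains, was at 58.4 and 57.1 CPM against 14.2 and 12.6 CPM (-2.11 ± 0.10). For these 3 genes every WT library stood at least 3-fold above every mutant library.

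Further falls held genes of membrane proteins and of antiviral defence. Tnfrsf1b, a receptor for tumor necrosis factor, was at 7.58 and 8.89 CPM in WT and 1.24 and 1.25 CPM in mutant cells (-2.73 ± 0.18). Mxra8, an adhesion protein, was at 12.1 CPM in both WT libraries and 1.75 and 2.14 CPM in mutant cells (-2.64 ± 0.15). The pairs of libraries were tight within each genotype for both. Samd9l, an interferon-induced antiviral gene, was at 7.32 and 11.7 CPM against 2.23 and 2.51 CPM (-2.02 ± 0.19). The zinc finger gene Gm13157 was at 9.88 and 10.6 CPM against 2.06 and 2.78 CPM (-2.08 ± 0.16). Ifit1, which binds foreign RNA, closed the list at 4.20 and 8.31 CPM against 2.50 and 1.22 CPM (-1.77 ± 0.28). For Ifit1 the size rested on library choice, at -1.17 without WT B and -2.37 without mutant A.

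**Figure D1:**
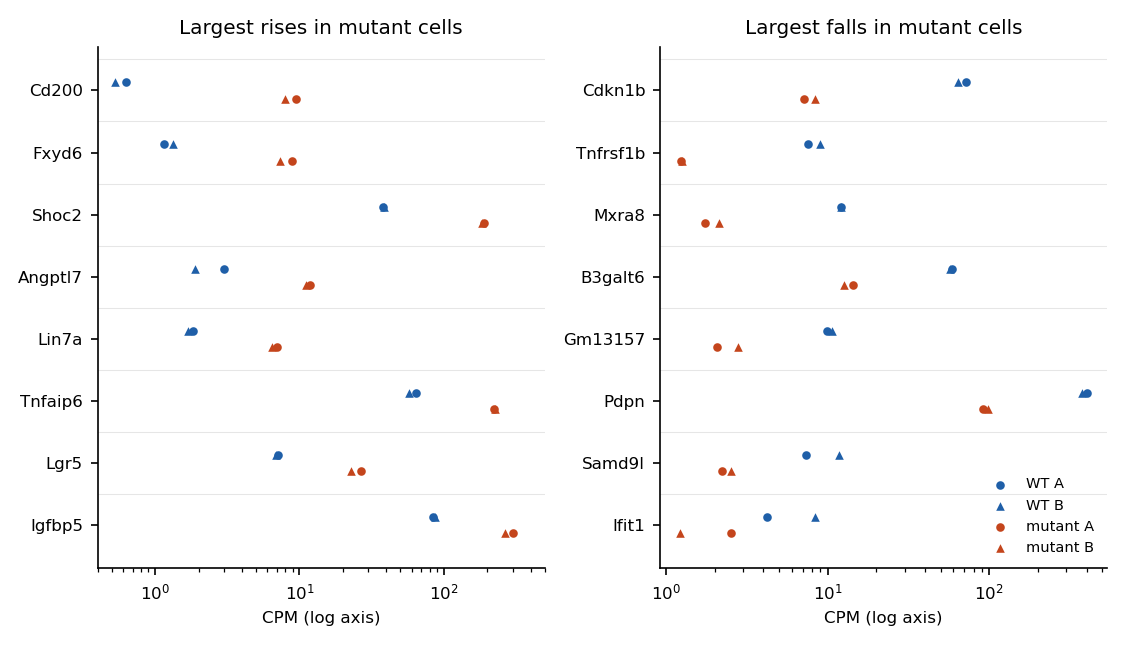
Levels in CPM (log axis) of the 8 genes that rose most and the 8 that fell most in vehicle-treated mutant cells, among called autosomal genes with at least 4 CPM. Each point is a library, blue for WT and red for mutant, circles for A and triangles for B, and in each gene the colours do not overlap, as for Cdkn1b with 64.4 to 71.6 CPM in WT and 7.14 to 8.30 CPM in mutant cells.

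Among genes with at least 4 CPM the largest rise was that of Cd200, a surface glycoprotein that restrains myeloid cells. Cd200 was at 0.632 and 0.528 CPM in WT A and B and at 9.47 and 7.96 CPM in mutant A and B (log2 fold change 3.91 ± 0.24, adjusted p = 3.0e-10). Shoc2, a scaffold that promotes RAS to ERK signalling, was at 37.9 and 38.2 CPM against 191 and 183 CPM (2.30 ± 0.08). Tnfaip6, a secreted protein that modifies hyaluronan, was at 64.0 and 56.9 CPM against 223 and 226 CPM (1.90 ± 0.08). Both WT libraries lay far below both mutant libraries in each case. Lgr5, a receptor for R-spondins and a stem cell marker in several epithelia, was at 7.10 and 6.90 CPM against 26.5 and 22.9 CPM (1.82 ± 0.14). Igfbp5, which binds insulin-like growth factors, was at 83.7 and 86.7 CPM against 299 and 263 CPM (1.72 ± 0.09). Fxyd6, a regulator of the sodium pump, Angptl7, a secreted angiopoietin-like protein, and Lin7a, a scaffold of cell junctions, also rose, by 2.70 ± 0.18, 2.25 ± 0.18 and 1.93 ± 0.17 on the log2 scale.

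Among genes with at least 50 CPM, the leading rises also held Cap1, which recycles actin monomers, Wdfy1, an endosomal adaptor, and Bcl11b, a zinc finger transcription factor. Cap1 was at 23.4 and 30.3 CPM in WT against 73.0 and 78.9 CPM in mutant cells (1.49 ± 0.11). Wdfy1 was at 44.5 and 45.3 CPM against 120 and 111 CPM (1.36 ± 0.08), and Bcl11b at 102 and 85.8 CPM against 197 CPM in both mutant libraries (1.07 ± 0.08). The abundant falls were Pdpn, Mgp, Khdrbs1, Sgk1, Ccdc80 and Cxcl5. Mgp, an inhibitor of calcification, was at 185 CPM in both WT libraries against 85.1 and 91.3 CPM (-1.07 ± 0.07). Sgk1, a serum-induced kinase, was at 319 and 291 CPM against 162 CPM in both mutant libraries (-0.91 ± 0.07). Khdrbs1, an RNA-binding splicing regulator, and Ccdc80, a matrix protein, fell by 0.93 ± 0.09 and 0.86 ± 0.09 on the log2 scale. Cxcl5, a neutrophil chemokine, varied more, at 87.2 and 57.5 CPM against 42.0 and 32.2 CPM (-0.96 ± 0.18). Its call was lost in DESeq2 with all libraries (-0.96), without WT A (-0.64) and without mutant B (-0.78).

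Reads of near-identical genes could be shared between rows. In a search of annotated transcripts, made after the values were seen, Khdrbs1 shared a stretch of at least 100 bases at 97% identity with 3 other genes, Shoc2 with 2, and Lgr5 with 1. Mdm2 shared such a stretch with 2 genes, Cdkn1a with 6, the longest of 138 bases, and Trp53 with 1 pseudogene over 353 bases. For the other 21 of 27 genes searched, Cdkn1b, Pdpn, B3galt6 and Cd200 among them, none was found. The 27 held Actb, but not the zinc finger gene Gm13157, which was among the leading falls.

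The p53 pathway was read at its regulators first. Trp53, which encodes p53, was at 7.80 and 8.86 CPM in WT and 7.75 and 8.47 CPM in mutant cells, and Mdm2 was at 140 and 132 CPM against 144 and 135 CPM. The libraries of the 2 genotypes overlapped for both genes, with log2 fold changes of -0.04 ± 0.14 (Trp53) and 0.04 ± 0.07 (Mdm2), neither called. Cdkn1a was at 11.3 and 13.8 CPM in WT A and B and at 8.61 and 9.35 CPM in mutant A and B. Its log2 fold change was -0.49 ± 0.11 (adjusted p = 0.0083). The call did not survive leaving out WT B (-0.33) or mutant A (-0.43).

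Of 37 tested p53-activated genes, 3 rose and 3 fell, and the median log2 fold change was -0.000. Among all autosomal genes 5.94% were called. Called or not, 13 of the 37 were lower without overlap and 3 higher, where 23.7% and 21.4% of all autosomal genes were. After doxorubicin 5 members were called lower in mutant cells and none higher, where 3.79% of all autosomal genes were lower and 3.85% higher. Besides Cdkn1a, the falls called with vehicle were Perp, a desmosomal protein linked to p53-dependent death, and Pmaip1, the BH3-only protein Noxa. Perp was at 13.3 and 14.0 CPM against 8.85 and 7.66 CPM (-0.73 ± 0.11). Pmaip1 was at 61.6 and 65.1 CPM against 42.3 and 43.1 CPM (-0.57 ± 0.07). Plk2, Ei24 and Rap2b rose by 0.34 ± 0.08, 0.25 ± 0.07 and 0.26 ± 0.07 on the log2 scale. These rises were thin, with 1 gene higher without WT A and 0 without any other vehicle library, while 2 or 3 genes fell. Of the 20 tested genes on either side of Cdkn1a, 1 of 40 was called, the sterol transporter gene Abcg1, which rose by 1.03 ± 0.12, and the median was -0.01.

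Cell cycle lists held few calls beyond Cdkn1b, where 5.94% of all autosomal genes were called. Of 43 genes of G2/M and mitosis, 1 rose and none fell, with a median of 0.02. The riser was Pttg1, the securin that guards sister chromatids, at 8.69 and 9.92 CPM in WT and 18.0 and 18.9 CPM in mutant cells (0.98 ± 0.10). Called or not, 13 of these 43 were higher without overlap and 1 lower, where 21.4% and 23.7% of all autosomal genes were. Of 43 genes of G1/S and DNA replication, 1 rose and 1 fell, with a median of -0.06, and neither direction held a call without mutant A. Of 6 CDK inhibitor genes, Cdkn1a and Cdkn1b fell and 4 were not called. The summed level of the CDK inhibitor list was 129 to 132 CPM in WT and 65.1 to 70.4 CPM in mutant cells.

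Interferon-stimulated genes were the list with most falls. Interferons act through a transcription factor complex that holds Irf9 and binds a short promoter element and switches on antiviral genes. Of 33 tested members, 16 fell and none rose, against 3.21% of all autosomal genes that fell. The median log2 fold change was -1.09, beside -0.003 over all autosomal genes, and 29 members were below 0. The summed level was 220 and 319 CPM in the WT libraries and 155 to 161 CPM in the mutant libraries. The list was drawn up with earlier results of these data known, so its direction is no independent evidence.

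WT B was above WT A for 31 of the 33 interferon-stimulated genes. Without WT B, 8 members fell and the median was -0.52, and without WT A, 21 fell and the median was -1.43. Both mutant libraries stood below both WT libraries in 22 members, where 23.7% of all autosomal genes were lower in that way. The mutant libraries showed no such order, with mutant B above mutant A for 14 members.

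Upstream in the pathway, Irf9 was at 3.64 and 7.04 CPM in WT and 2.47 CPM in both mutant libraries (-1.13 ± 0.23). Its call was lost without WT B (-0.56). Among sensors of viral RNA, Ifih1 was at 4.38 and 6.69 CPM against 2.37 and 2.17 CPM (-1.30 ± 0.19). Among effectors, the GTPase gene Irgm1 was at 33.1 and 44.6 CPM against 19.9 and 18.2 CPM (-1.03 ± 0.13). Gbp7, a guanylate-binding protein, was at 7.88 and 12.9 CPM against 5.04 and 3.93 CPM (-1.23 ± 0.20, and -0.81 without WT B). Ifih1, Irgm1 and Gbp7 kept their calls whichever vehicle library was left out. Ifi44, Usp18 and Rtp4 had larger estimates at low levels, and these turned on WT B. Ifi44 was at 2.64 and 10.1 CPM against 0.823 and 0.305 CPM (-3.53 ± 0.53, and -2.22 without WT B). Usp18, a brake on interferon signalling, was at 1.26 and 5.37 CPM against 0.412 and 0.373 CPM (-3.13 ± 0.53), and lost its call without WT B (-1.67). Rtp4 was at 3.27 and 8.98 CPM against 1.61 and 0.949 CPM (-2.29 ± 0.34, and -1.35 without WT B). Members not called included Isg15, at 0.223 and 0.470 CPM against 0.103 and 0.203 CPM, Ifit2, at 10.5 CPM in both WT libraries against 8.13 and 9.73 CPM, and Stat2, at 2.68 and 4.99 CPM against 2.78 CPM in both mutant libraries.

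**Figure D2:**
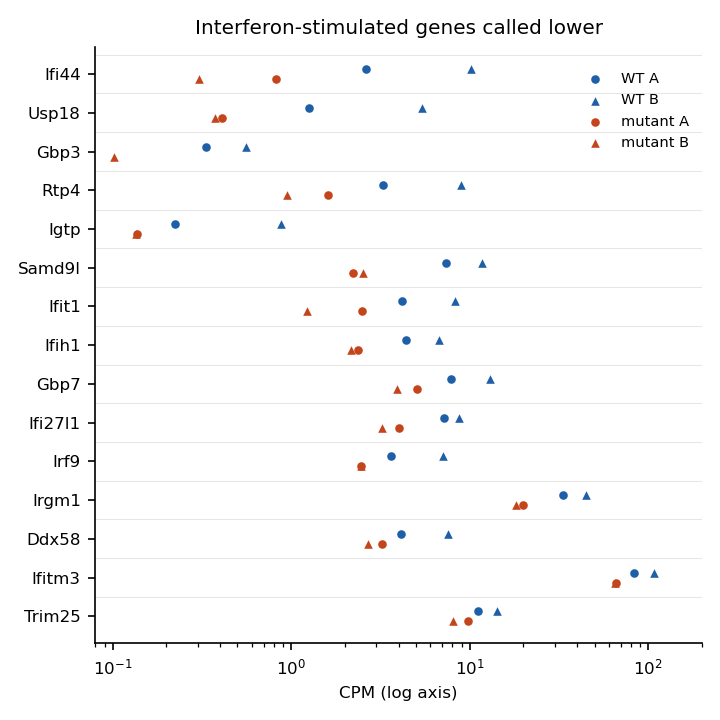
Levels in CPM (log axis) of 15 of the 16 interferon-stimulated genes that fell, by library, blue for WT and red for mutant, circles for A and triangles for B. The WT B points lie right of the WT A points, as for Ifi44 with 10.1 against 2.64 CPM, and Gbp3 is at 0 in mutant A, which a log axis cannot show.

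Antigen presentation genes, many of them interferon targets, were read beside these. Of 11 tested members, 3 fell and none rose, with a median of -0.60, where 3.21% of all autosomal genes fell and 2.73% rose. B2m, the light chain of MHC class I, was at 983 and 934 CPM in WT and 719 and 684 CPM in mutant cells (-0.45 ± 0.07). H2-K1, a class I heavy chain, was at 18.9 and 20.8 CPM against 12.6 and 10.8 CPM (-0.77 ± 0.10). H2-D1, another heavy chain, fell by 0.61 ± 0.12 on the log2 scale and lost its call without mutant B (-0.54). H2 genes resemble each other, and reads could be shared among them.

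Promoters of the interferon-stimulated genes were searched for GAAANNGAAA, the core of the interferon response element, on both strands in the 250 bases before the start. The search was made after the values were seen. Sequences are from RefSeq on GRCm38.p6, which held a promoter for 9002 of the 11414 genes, in gene orientation, and the capitals mark the motif or its reverse complement TTTCNNTTTC. Shown are 3 list members that fell (Ifit1, Gbp7 and Irgm1), 2 genes outside the list that fell (B2m and Trim30d), and Isg15, a member with the motif that was not called. They are Ifit1 at chr19:34640725-34640854 (+), Gbp7 at chr3:142530223-142530335 (+), Irgm1 at chr11:48871421-48871510 (-), B2m at chr2:122147488-122147617 (+), Trim30d at chr7:104507850-104507950 (-) and Isg15 at chr4:156200827-156200956 (-).
Ifit1: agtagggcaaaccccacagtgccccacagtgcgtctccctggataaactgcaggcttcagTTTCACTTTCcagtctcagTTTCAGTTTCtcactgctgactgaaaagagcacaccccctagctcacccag
Gbp7: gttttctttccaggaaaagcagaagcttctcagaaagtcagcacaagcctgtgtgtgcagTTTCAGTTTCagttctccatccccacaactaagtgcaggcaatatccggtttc
Irgm1: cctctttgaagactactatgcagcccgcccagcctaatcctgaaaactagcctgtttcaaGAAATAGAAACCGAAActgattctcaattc
B2m: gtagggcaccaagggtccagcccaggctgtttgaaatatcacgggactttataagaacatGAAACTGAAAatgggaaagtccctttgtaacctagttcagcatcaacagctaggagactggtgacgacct
Trim30d: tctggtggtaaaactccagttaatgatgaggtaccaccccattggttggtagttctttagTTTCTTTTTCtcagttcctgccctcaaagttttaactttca
Isg15: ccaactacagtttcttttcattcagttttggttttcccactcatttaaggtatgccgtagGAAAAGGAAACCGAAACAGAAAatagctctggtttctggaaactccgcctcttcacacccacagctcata

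The motif was found in 14 of 27 interferon-stimulated genes with a promoter (51.9%), against 3.14% of all autosomal genes with one. Within the list it did not mark the genes that fell, with 5 of 12 called members (41.7%) and 9 of 15 members not called (60%) holding it. Among genes outside the list that fell, 20 of 263 held it (7.6%), and among genes that rose, 2.19%. TATAAA, on the coding strand, was in 9.21% of genes that rose, 8.73% of genes that fell and 4.74% of all. The median ratio of observed to expected CpG was 0.707 in genes that rose, 0.633 in genes that fell and 0.747 in all.

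Secreted signals and their receptors were read next, against 2.73% of all autosomal genes that rose and 3.21% that fell. Of 43 growth factor and receptor genes, 1 rose and 8 fell, with a median of -0.05. The riser was Igfbp5, and 4 or 5 genes fell with any vehicle library left out. Igfbp4, a related binding protein, was at 41.9 and 49.5 CPM in WT and 21.99 and 22.2 CPM in mutant cells (-1.05 ± 0.10). Fgf7, a mesenchymal growth factor that acts on epithelia, was at 130 and 118 CPM against 71.3 and 65.6 CPM (-0.85 ± 0.08). Igfbp4 and Igfbp5 thus moved in opposite directions.

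Of 31 NF-kappaB targets, chemokines and cytokines, 1 rose and 7 fell, against 2.73% and 3.21% of all autosomal genes, with a median of -0.13. Cxcl1, a neutrophil chemokine, was at 12.5 and 11.4 CPM in WT against 5.49 and 5.76 CPM in mutant cells (-1.09 ± 0.13). Cxcl5, described above, was another of the 7, and 3 fell without mutant B, while the rise was not called without mutant A. Cx3cl1, the chemokine fractalkine, fell by 1.34 ± 0.28 on the log2 scale from below 2 CPM, and lost its call without mutant B (-1.11).

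Wnt pathway genes moved both ways, with 4 higher and 4 lower of 35 and a median of 0.17, where 2.73% of all autosomal genes were higher and 3.21% lower. Besides Lgr5, the transcription factor Lef1, a nuclear partner of beta-catenin, was at 48.3 and 42.3 CPM in WT and 88.6 and 94.5 CPM in mutant cells (1.02 ± 0.10). Rspo2, a ligand of Lgr receptors, was at 5.95 and 5.96 CPM against 2.33 and 2.37 CPM (-1.34 ± 0.19). A receptor and a ligand of the same pair thus moved in opposite directions. Of 42 TGF-beta and BMP pathway genes, 4 rose and 5 fell, with a median of -0.03, but 0 or 1 rose with any vehicle library left out, and 1 fell without WT B, mutant A or mutant B (3 without WT A). Ltbp2, a matrix protein of the latent TGF-beta binding protein family, was at 91.4 CPM in both WT libraries against 67.0 and 61.5 CPM (-0.51 ± 0.09).

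Transcription factors that mark position in the embryo, which cultured fibroblasts keep expressing, moved both ways, and 5.94% of all autosomal genes were called. Of 28 Hox genes, 3 rose and 3 fell, with a median of 0.04, and of 59 limb, trunk and head patterning factors, 9 rose and 6 fell, with a median of -0.15. Without WT B 3 patterning factors rose and 5 fell, and without mutant A or mutant B 4 rose and 4 or 3 fell. The Hox calls also thinned, to 1 higher and 1 lower without WT A and 1 higher and 2 lower without any other vehicle library. Hoxc13 was at 2.60 and 2.02 CPM in WT and 4.63 and 5.52 CPM in mutant cells (1.15 ± 0.16). Hoxd10 was at 27.1 and 22.3 CPM against 15.9 and 15.1 CPM (-0.67 ± 0.11). Within the Hox list, the 3 risers were of the HoxC cluster and the falls of HoxA and HoxD. Bnc1, a zinc finger factor, was at 2.49 and 3.23 CPM against 6.72 and 7.15 CPM (1.26 ± 0.15), and Bcl11b was the most abundant riser of the patterning list.

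Matrix genes were split, with 2.73% of all autosomal genes higher and 3.21% lower. Of 60 collagens and other matrix genes, 6 rose and 8 fell, with a median of -0.08, and the rises were 3 without WT A, 2 without WT B, 3 without mutant A and 4 without mutant B. Hapln1, which links hyaluronan to proteoglycans, was at 12.1 and 10.2 CPM in WT and 4.49 and 5.15 CPM in mutant cells (-1.21 ± 0.18). Of 24 matrix proteases and inhibitors, 2 rose and 1 fell, with 1 rise without WT B, mutant A or mutant B. Mmp13, a collagenase, was at 3.27 and 3.17 CPM against 5.56 and 5.66 CPM (0.80 ± 0.16), and Timp2, a protease inhibitor, at 247 and 267 CPM against 204 and 192 CPM (-0.38 ± 0.07).

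Of 19 smooth muscle and myofibroblast genes, 1 rose and 5 fell, against 2.73% and 3.21% of all autosomal genes, with a median of -0.13. Mylk, the kinase that starts smooth muscle contraction, was at 447 and 459 CPM in WT and 284 and 264 CPM in mutant cells (-0.73 ± 0.08). Ctgf, a matrix signal induced by YAP and TGF-beta, was at 3807 and 4214 CPM against 2976 and 2552 CPM (-0.54 ± 0.08). Without WT B 2 genes fell, and without mutant A or mutant B 3 did. The summed level of the list was 10916.5 to 11466 CPM in WT and 8881 to 9500 CPM in mutant cells.

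Metabolic, stress and imprinted gene lists held up to 4 calls each, with 5.94% of all autosomal genes called. Of 26 NRF2 and glutathione genes 2 fell, Nqo1, a quinone reductase (-0.59 ± 0.07), and Mgst1, a glutathione transferase (-0.67 ± 0.08). None of 30 ATF4 stress response genes was called in edgeR's quasi-likelihood test, in DESeq2 or in limma-voom. In edgeR 4 of the 30 had an unadjusted p under 0.05, as had 1758 of all 11414 autosomal genes tested. The member with the largest estimate, Yars, was at 7.32 and 8.63 CPM against 10.5 and 10.2 CPM. Of 64 ribosomal protein genes 2 fell, of 18 glycolysis genes 2 fell, of 38 imprinted genes 2 rose and 2 fell, and of 26 immediate early genes 2 rose and 1 fell. Without mutant A, no ribosomal protein or glycolysis gene fell and no immediate early gene rose. Without WT A no ribosomal protein gene fell, and without WT B or mutant B no immediate early gene rose. No imprinted gene fell without WT B or mutant A. Zdbf2, an imprinted gene, was at 59.2 and 55.8 CPM against 104.5 and 89.1 CPM (0.75 ± 0.08), and Egr1, an early response factor, at 228 and 233 CPM against 176 and 172 CPM (-0.40 ± 0.07).

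Markers of other cell types moved with genotype in part, where 2.73% of all autosomal genes were called higher and 3.21% lower. Neural and Schwann cell markers summed to 55.3 to 56.6 CPM in WT and 91.6 to 92.1 CPM in mutant cells. Of 7 tested, 3 rose and 1 fell, the fall not called without WT B, mutant A or mutant B, led by Map2, a microtubule protein of neurons, at 18.1 and 16.7 CPM against 43.8 and 43.5 CPM (1.33 ± 0.09). Adipocyte markers summed to 63.9 to 66.4 CPM and 89.7 to 91.4 CPM, with Lpl, a lipase, the only riser of 5 (0.80 ± 0.08) and Plin1, Cfd, Lep and Cidec at 0, while the list's median log2 fold change was -0.22. Of 12 macrophage and leukocyte markers 2 rose and none fell, with a median of 0.51, and no rise was called without WT B or mutant A. Of 3 tested epithelial and mesothelial markers 1 rose, a call lost with any vehicle library left out, and of 6 cartilage, bone and tendon markers 1 rose and 1 fell. That rise was lost with any vehicle library left out, and that fall without WT B or mutant A. Finally, of 12 fibroblast markers 2 rose, with a median of 0.11, and 1 rose without WT A, WT B or mutant A. In bulk RNA more cells of a type and more RNA per cell cannot be told apart, and the part of these markers in the other results was not tested.

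**Figure D3:**
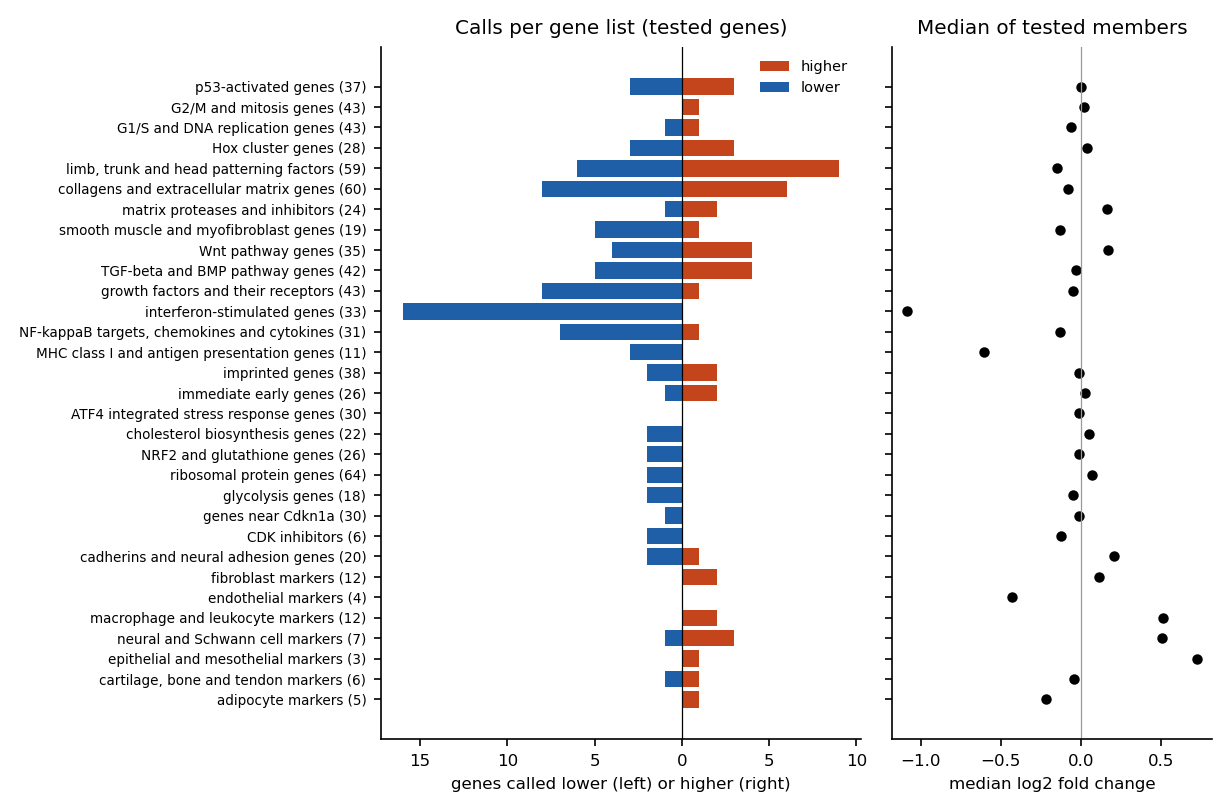
Left, number of genes called higher (red) or lower (blue) in vehicle-treated mutant cells for each gene list with at least 3 tested genes, the number tested in brackets. Right, median log2 fold change of mutant over WT over all tested members, where the interferon-stimulated genes lie lowest at -1.09.

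Called genes lay on every autosome, from 2.29% of tested genes on chromosome 17, which holds Cdkn1a, to 8.78% on chromosome 4. Along single autosomes the share was less even. Each was cut into 10 stretches of near-equal numbers of tested genes. On chromosome 10, stretch 1 held 13 called of 59 genes (22%) and stretch 6 held 0 of 58. On chromosome 4, stretches 9 and 10 had 17.6% and 16.2%, and stretch 2 had 1.35%. The highest share was 23.1% (9 of 39), in stretch 7 of chromosome 16. Whether such unevenness exceeds random placement was not tested. Gene order was taken from GRCm38, since the counts were made on mm9. Of the 8 largest falls among genes with at least 4 CPM, 5 lay on chromosome 4 (Tnfrsf1b, Mxra8, B3galt6, Gm13157 and Pdpn). That chromosome held 740 of the 11414 autosomal genes tested, and 1 of the 8 largest rises.

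Windows of 10 neighbouring tested genes were ranked by their calls, as a description of where calls lay close together. Over 11243 overlapping windows the median was 0, and 6 windows held at least 6. The fullest window, on chromosome 6, held Cdkn1b and 6 more called genes. Apold1, an endothelial early response gene, stood next to Cdkn1b and went the other way, at 1.56 and 2.32 CPM in WT and 6.14 and 5.19 CPM in mutant cells (1.52 ± 0.19). Emp1, a membrane protein, was at 10888.5 and 10501 CPM against 16069 and 15151 CPM (0.55 ± 0.06). Pbp2 and Gprc5a fell, with log2 fold changes of -2.96 ± 0.37 and -1.68 ± 0.28. Of 20 tested genes on either side of Cdkn1b, counted after its value was seen, 12 of 40 were called, 5 higher and 7 lower, where 7.37% of tested genes on chromosome 6 and 5.94% on all autosomes were called. Of these, 3 stood before Cdkn1b in gene order and 9 after it, and 10 were called in the same direction after doxorubicin.

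The next window, on chromosome 7, held Trim genes, which encode antiviral ubiquitin ligases. Trim30d was at 13.2 and 21.4 CPM in WT and 5.69 and 4.88 CPM in mutant cells (-1.72 ± 0.19). Trim21 was at 10.96 and 14.6 CPM against 5.66 and 6.51 CPM (-1.08 ± 0.14). Trim30a lost its call without WT B (-1.33 ± 0.24, and -0.68 without it). A window on chromosome 4 held a cluster of zinc finger genes, of which Zfp933 rose (1.40 ± 0.15) and 2610305D13Rik fell (-3.62 ± 0.30). Gm13154 of this cluster had 1 count in each WT library and 49 and 45 in the mutant libraries. Members of both clusters resemble each other, and reads could be shared among them.

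**Figure D4:**
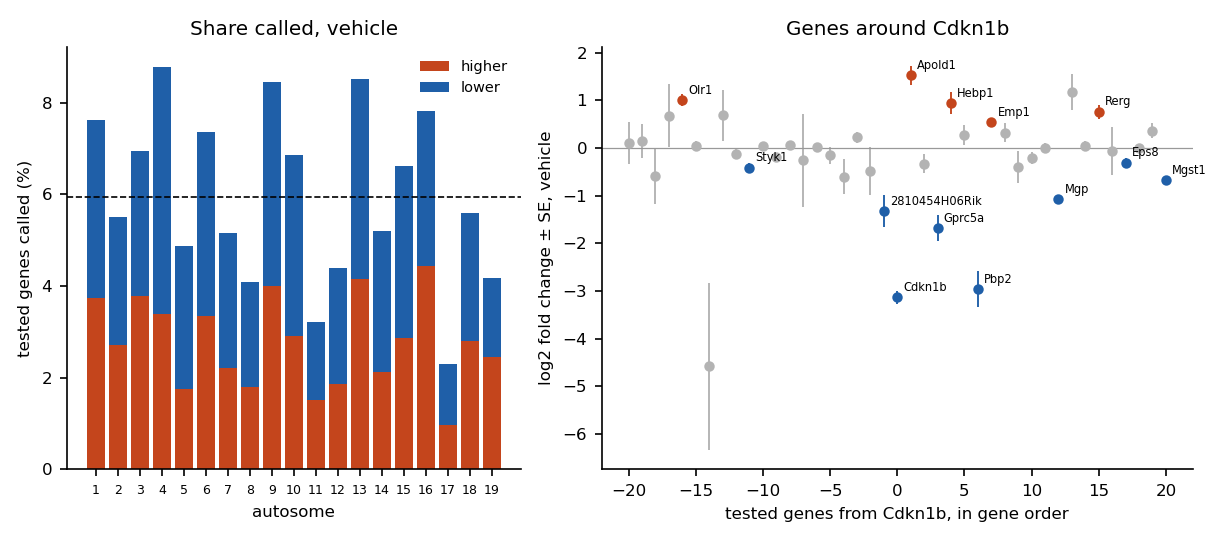
Left, share of tested genes called higher (red) or lower (blue) per autosome, with the dashed line at 5.94% for all autosomes. Right, log2 fold change of mutant over WT with vehicle (bars, SE) for the 20 tested genes on either side of Cdkn1b in gene order, red called higher, blue called lower and grey not called, with Cdkn1b lowest of the called genes at -3.14.

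The same genotypes were compared after doxorubicin, in libraries that do not enter the vehicle fold changes but share the filter, the scaling and the estimate of spread with them. The labels do not say whether the same cultures supplied both treatments. There 872 of 11414 autosomal genes were called (7.64%), 439 higher (3.85%) and 433 lower (3.79%). Of the 678 genes called with vehicle, 413 were called in the same direction, which is 60.9% of the vehicle calls and 47.4% of the doxorubicin calls, and none was called in the opposite direction. The sign was shared by 652 (96.2%), against 63.3% of genes not called with vehicle. All 24 genes chosen for the largest changes at 4 or 50 CPM and above were called in the same direction after doxorubicin. Cdkn1b was at -3.02, Shoc2 at 2.20 and Pdpn at -2.30. Of all 176 vehicle calls of at least 2-fold, at any level, 103 were called in the same direction. Of the interferon-stimulated genes, 17 fell and none rose, with a median of -0.99. Of the 43 G2/M and mitosis genes, 22 were called higher in mutant cells and none lower, with a median of 0.35. With vehicle 1 of these 43 was called higher, with a median of 0.02. Cdkn1a was also called lower after doxorubicin, at 72.5 and 66.2 CPM in WT and 49.9 and 51.7 CPM in mutant cells (-0.45 ± 0.09).

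The difference between the 2 genotype contrasts was called for 9 autosomal genes (0.0789%), with a difference above 0 for 4 (0.035%) and below 0 for 5 (0.0438%), and 4 of the 9 were among the vehicle calls. Bnc1 had a log2 fold change of 1.26 with vehicle and 0.28 after doxorubicin, Pttg1 of 0.98 and 0.17, and Bcl11b of 1.07 and 0.45. The count rested on few libraries, with 0 left without WT B of the vehicle group or mutant A of the vehicle group and 48 without WT B of the doxorubicin group.

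**Figure D5:**
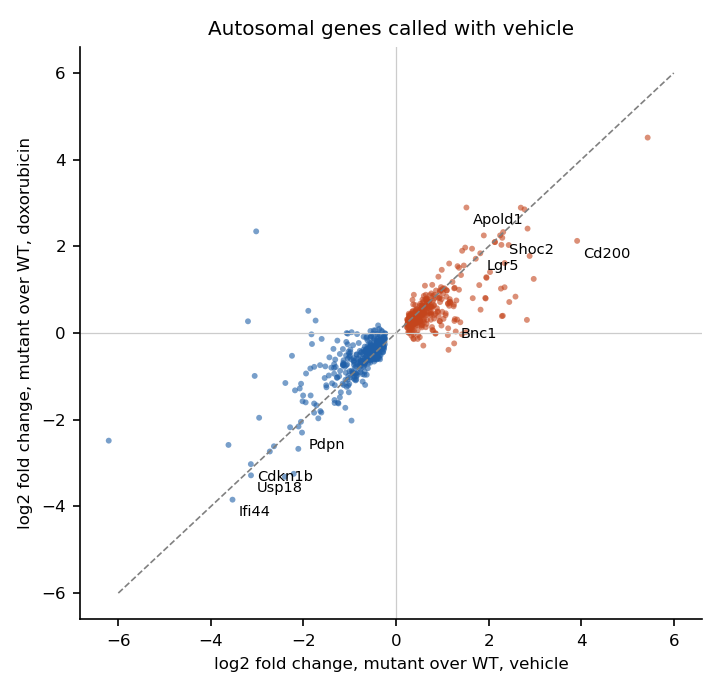
Log2 fold change of mutant over WT with vehicle (x axis) against the same after doxorubicin (y axis) for the 678 autosomal genes called with vehicle, red higher and blue lower. The dashed line marks equal values, and 652 of the genes share their sign.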

How the data were processed

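RNA of 8 libraries of mouse embryonic fibroblasts was measured by sequencing. The deposited table holds whole-number counts per gene symbol, made by the authors with Bowtie2 and HTSeq on mm9 per the submitters' processing notes, with no normalization. The strand setting, annotation and treatment of multiply mapped reads are not given in the sources used here, and the labels name both an exome-capture kit and 3' end sequencing. Of the rows, 27 were dates made from symbols by a spreadsheet. From the counts, edgeR 4.0.16 in R 4.3.3 fitted all 8 libraries with a coefficient per group, TMM factors and filterByExpr, and tested contrasts by quasi-likelihood with Benjamini-Hochberg adjustment over 12255 genes, on 4 residual degrees of freedom. SE is the size of the log2 fold change over the square root of F. On simulated counts for the vehicle comparison over 12113 genes, changes of 0.5, 1 and 2 on the log2 scale were called for 50.85%, 80.56% and 92.54% of genes, with 15 false calls among 165.

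Named genes were Cdkn1a, Mdm2 and Trp53, the 8 largest called changes per direction at 4 CPM or more without overlap, the 6 largest at 50 CPM or more, up to 3 called members per list (the largest if none is called) and the called members of the 3 fullest windows. Others (Abcg1, Plk2, Ei24, Rap2b, Col1a2 and further interferon-stimulated genes) were named after their values were seen. The members and lists were chosen with earlier results of these data known. Alternatives were other scaling (DESeq2 1.42.0 size factors, upper quartile), DESeq2, limma-voom 3.58.1, other filters, thresholds, fewer libraries, and the library letter as a block. The letters did not pair the samples, since A-minus-B differences correlated at -0.025 to 0.031 between groups. A few genes are not reported here.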

Additional observations from a re-analysis of the deposited data

Results flagged for a closer look

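For 3 of the named genes the genotype difference itself differed between treatments in edgeR's quasi-likelihood test of the interaction. The log2 difference after doxorubicin minus that with vehicle was -0.62 for Bcl11b, -0.81 for Pttg1 and -0.98 for Bnc1. Each rose in mutant cells with vehicle, and Pttg1 and Bnc1 were not called after doxorubicin.

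Xist lies outside the autosomal rows and averaged 233 CPM in the vehicle-treated mutant libraries, against 0.260 and 0.293 CPM in the WT libraries. It was picked out because it is a signal in rows that the autosomal comparison does not use. Its part in the autosomal differences was not tested.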

How the results depend on the processing

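The count of 678 autosomal genes called with vehicle was 678 with DESeq2 size factors, 657 with upper-quartile factors, 523 in DESeq2, 643 in limma-voom and 787 with only the 4 vehicle libraries. With upper-quartile factors 52.1% of calls were higher, against 46.0%. Requiring a 2-fold change left 176 (76 higher, 100 lower) with vehicle, 143 after doxorubicin and 3 for the difference between the contrasts. Leaving out each vehicle library in turn gave 361 to 456 calls, 153 to 213 higher and 189 to 243 lower. Leaving out each doxorubicin library gave 485 to 1118 calls after doxorubicin, where 872 were called with all. The difference between the contrasts, at 9 genes, gave 4 in limma-voom, 44 with no filter on low counts, 5 with at least 5 CPM in 2 libraries, 17 at an adjusted p under 0.10, and 0 to 48 with each library left out. The library letters share no stated origin and did not pair the samples. With the replicate block the vehicle count was 697. Of 1488 values of the 117 named genes under these settings, 1362 stayed on the same side of the threshold, 125 lost the call and 1 gained it. No value of a called gene changed sign, while those of Trp53 and Mdm2, which were not called, lay on either side of 0, and 70 of 111 called genes kept their call in every setting that gave a value. Losses were most frequent where a library was left out. At 3 counts the floor was 0.0880 to 0.120 CPM, which limits what can be said of genes near it, counting error only.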

Other observations

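Several genes outside the rule for named genes, chosen after their values were seen, also differed between the vehicle groups. Actb, the cytoplasmic actin, was at 37805 and 37732 CPM in WT and 57501 and 61252 CPM in mutant cells (log2 fold change 0.65 ± 0.07). Crabp1, a retinoic acid binding protein, was at 40.7 and 46.6 CPM against 80.5 and 100.5 CPM (1.05 ± 0.10). Satb1, a chromatin organiser, was at 31.5 and 27.7 CPM against 63.0 and 62.8 CPM (1.09 ± 0.09). Hmgn2, a nucleosome-binding protein, was at 37.9 and 35.0 CPM against 10.8 and 10.5 CPM (-1.77 ± 0.09). In each of these 4 genes the WT and mutant libraries did not overlap, and each was called in the same direction after doxorubicin.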
